A study of Mus musculus with 10 samples.

Results

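The mRNA levels of 38 peroxisome genes were followed in interscapular brown adipose tissue (iBAT) of mice without the receptor tyrosine kinase AXL. The genes were listed by function, with earlier results of these data known: enzymes of fatty acid oxidation and ether lipid synthesis, transporters, peroxins and membrane proteins. All 38 were found among the 41249 gene identifiers of the count tables, and all 38 passed the filter on low counts that left 13739 genes. Whole iBAT depots of 5 Axl KO mice and of 5 wild-type (WT) controls gave 1 library each. Both genotypes received a high-fat diet (HFD) for 24 weeks from an age of 6 to 8 weeks per the sample records, while the study's text places these animals a little older and on the diet slightly longer, and describes them as males. Axl KO mice lack the gene in the whole body and from conception. They carry a "knockout-first" cassette in an intron of Axl, which holds a splice acceptor, LacZ and a neomycin resistance gene, and descend from a pair of injected ES cell clones. The WT mice were offspring of the same kind of cross between heterozygous animals. Whole depots were extracted, so brown adipocytes were measured together with vessels, connective tissue, blood and any attached muscle, and for every gene below fewer cells that express it cannot be told apart from less RNA per cell.

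Peroxisomes are single-membrane organelles that shorten very long-chain, branched and dicarboxylic fatty acids by beta-oxidation, remove hydrogen peroxide formed in that pathway, and carry out the first steps of ether lipid (plasmalogen) synthesis. They have no DNA of their own: peroxins insert the membrane proteins, import the folded matrix enzymes from the cytosol and divide the organelle. Brown adipose tissue is rich in peroxisomes, which multiply in the cold, and many of their genes are targets of the nuclear receptor PPARα.

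Libraries held 5431014 to 8214841 counts on genes in Axl KO and 5952427 to 9580215 in WT mice. Axl itself was at 0.438 to 2.01 CPM (counts scaled to an equal library size) in Axl KO and 38.3 to 52.4 CPM in WT mice, a log2 fold change of −4.77 (edgeR adjusted p = 1.09e-07). Of 13739 genes it alone passed an adjusted p of 0.05 in edgeR (0.00728%), whereas DESeq2 gave 9 (0.0655%). At an unadjusted edgeR p under 0.05, the level used for the markers below, there were 8.38% of all genes. Of 10 brown adipocyte markers, 8 were higher in Axl KO mice and 5 had an unadjusted p under 0.05. Their summed level was 10137 to 13207 CPM against 8420 to 10489 CPM in WT mice. All 8 fibroblast markers were lower, 2 of them at an unadjusted p under 0.05 (sums of 488 to 815 against 706 to 942 CPM), and so were all 10 skeletal muscle markers, with sums that ran from 4.97 to 3214 CPM in Axl KO and from 745 to 3660 CPM in WT mice. Of 9 endothelial markers, 3 had a higher and 6 a lower fitted level, and 2 of the lower ones had an unadjusted p under 0.05. Of 10 macrophage markers 5 were higher (sums of 149.5 to 276 against 169 to 258 CPM), and of 5 erythroid markers tested 3 (385 to 716 against 476 to 668 CPM), while the B and T cell markers summed to at most 3.61 CPM and none was tested. Of 5 white fat markers tested 2 were higher (sums of 212 to 663 against 287 to 601 CPM), and Hoxc9 of that list was at 0 in every mouse. The part of these cell types in the results below was not tested.

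Per kilobase of exon, the mRNA of the 38 genes in iBAT was dominated by a few enzymes. Levels between genes are given as RPKM, the CPM divided by the exon length in kilobases, as the mean ± SD of 5 mice. The exon length counts every exon base annotated for a gene over all its transcripts, so the order between genes depends in part on annotation. Gene positions are those of GENCODE M21 on GRCm38. Ech1, which shifts double bonds of unsaturated fatty acids in peroxisomes and mitochondria (ENSMUSG00000053898, chromosome 7 from 28825217 to 28832247), was highest, at 851 ± 35.3 RPKM in Axl KO and 834 ± 32.3 RPKM in WT mice. Cat, the catalase that breaks down hydrogen peroxide (ENSMUSG00000027187, chromosome 2 from 103453849 to 103485160), followed at 418 ± 17.9 and 408 ± 27.7 RPKM. Phyh, which starts the alpha-oxidation of phytanic acid (ENSMUSG00000026664, chromosome 2 from 4919019 to 4938730), was at 364 ± 14.3 and 383 ± 14.5 RPKM. The ranges of Cat and Phyh over the 10 mice overlapped, while that of Ech1 lay above both. Hsd17b4, the bifunctional enzyme of the middle steps of beta-oxidation (ENSMUSG00000024507, chromosome 18 from 50128201 to 50196269), and Scp2, a sterol carrier protein whose long form is a thiolase for branched chains (ENSMUSG00000028603, chromosome 4 from 108043839 to 108144998), had overlapping ranges around means of 167 and 166 RPKM. Abcd3, which imports branched and dicarboxylic acyl-CoAs (ENSMUSG00000028127, chromosome 3 from 121758774 to 121815302), was at 101 RPKM. These 6 genes made up 75.3% of the summed RPKM of the 38.

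Among peroxins, Pex19 (66.9 RPKM), Pex13 (37.8), Pex2 (34.3), Pex6 (31.7) and Pex16 (31.1) had the highest mean RPKM, and Pex26 the lowest (2.17). At the low end of all 38 stood Acot4, a thioesterase of dicarboxylic acyl-CoAs, at 1.05 RPKM. Neighbours in this order mostly overlapped over the 10 mice, and genotypes lay on top of each other for most genes, as the plot of levels shows.

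**Figure D1:**
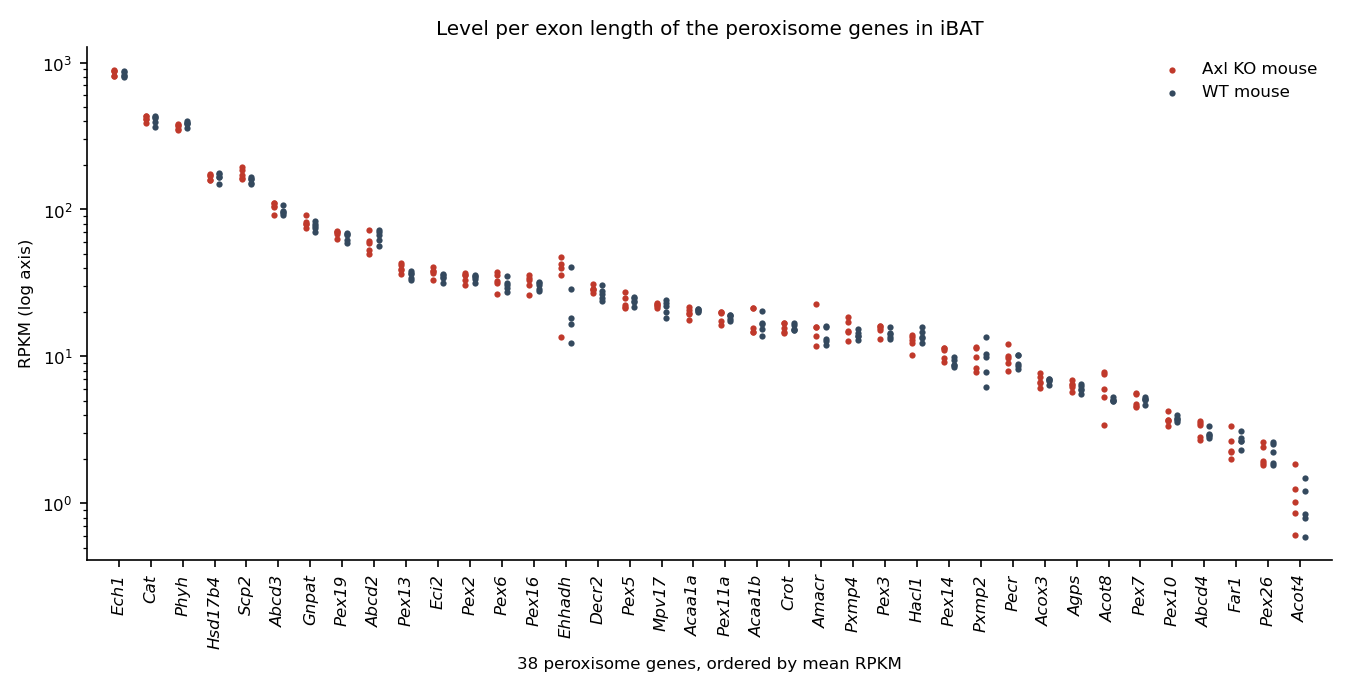
Level of each of the 38 peroxisome genes per exon length (RPKM, log axis) in each of 5 Axl KO (red) and 5 WT (dark) mice, ordered by the mean over the 10 mice. Ech1 stands highest at a mean of 843 RPKM and Acot4 lowest at 1.05 RPKM, and no gene has all Axl KO points above or below all WT points.

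The 250 bases before the RefSeq transcription start were read for the 31 members that the RefSeq table for GRCm38.p6 holds, in 35 windows. Hsd17b4, Amacr, Abcd2, Abcd4, Pex2, Pex19 and Pxmp2 are not in it. Motifs were searched on both strands. DR1 (AGGTCANAGGTCA, at most 2 mismatches), the repeat that dimers of PPAR and RXR receptors bind, occurred in 2 windows, those of Cat and Acot4, or 5.71%, against 3.24% of 32851 windows of all genes. The motif TCAAGGTCA of estrogen-related receptors occurred in 0 windows (0.387% of all). The CCAAT box occurred in 48.6% of member windows and 33.8% of all, and the GC box GGGCGG in 65.7% and 32.7%. The median GC content was 60.0% in member windows and 52.4% in all. The windows of all genes were not limited to genes that passed the filter on low counts, as all members did, so the 2 sets are unlike. These are matches of letters, not sites shown to be bound.

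In addition, 9 of the 38 members (23.7%) start within 500 bases of another coding gene that is read in the opposite direction, against 13.7% of the 12145 coding genes tested. Pex13 and Pus10 start 285 bases apart, and Pex11a and Wdr93 32 bases apart.

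The windows below are those of the members with the lowest unadjusted p (Scp2, Pex13 and Pex14), of the member with the largest fold change (Ehhadh) and of the DR1 matches (Cat and Acot4). Each is written 5′ to 3′ on the strand of its gene, and capitals mark matches to DR1, CCAAT or GGGCGG on either strand, so that ATTGG and CCGCCC are the same motifs read from the other strand. Positions are those of GRCm38.p6. Scp2 is at chr4:108118548-108118797, minus strand, before a start that lies 26451 bases inside the annotated gene. Pex13 is at chr11:23665884-23666133, minus strand, and holds GGGCGG in overlapping copies. Pex14 is at chr4:149099844-149100093, minus strand. Ehhadh is at chr16:21787835-21788084, minus strand. Cat is at chr2:103485154-103485403, minus strand, with its DR1 match from 204 to 192 bases before the start. Acot4 is at chr12:84038129-84038378, plus strand, with its DR1 match, on the minus strand, from 13 to 1 base before the start.
Scp2: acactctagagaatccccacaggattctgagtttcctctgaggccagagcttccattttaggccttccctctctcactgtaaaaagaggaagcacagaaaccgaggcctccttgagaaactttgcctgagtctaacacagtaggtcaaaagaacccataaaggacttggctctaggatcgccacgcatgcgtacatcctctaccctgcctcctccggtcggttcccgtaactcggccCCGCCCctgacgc
Pex13: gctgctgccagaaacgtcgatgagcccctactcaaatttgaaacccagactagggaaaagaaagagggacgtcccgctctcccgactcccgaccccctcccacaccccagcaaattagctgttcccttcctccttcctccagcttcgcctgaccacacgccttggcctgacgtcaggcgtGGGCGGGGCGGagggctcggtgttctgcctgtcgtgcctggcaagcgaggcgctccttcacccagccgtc
Pex14: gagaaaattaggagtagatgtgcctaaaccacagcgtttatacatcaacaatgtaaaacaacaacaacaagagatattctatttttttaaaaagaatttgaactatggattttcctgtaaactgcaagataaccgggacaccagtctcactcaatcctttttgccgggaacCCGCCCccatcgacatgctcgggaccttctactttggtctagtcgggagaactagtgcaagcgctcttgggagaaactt
Ehhadh: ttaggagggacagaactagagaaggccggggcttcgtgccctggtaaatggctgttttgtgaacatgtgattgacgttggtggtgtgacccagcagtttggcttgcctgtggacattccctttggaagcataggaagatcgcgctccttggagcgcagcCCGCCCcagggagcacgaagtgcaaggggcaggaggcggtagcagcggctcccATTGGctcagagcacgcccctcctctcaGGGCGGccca
Cat: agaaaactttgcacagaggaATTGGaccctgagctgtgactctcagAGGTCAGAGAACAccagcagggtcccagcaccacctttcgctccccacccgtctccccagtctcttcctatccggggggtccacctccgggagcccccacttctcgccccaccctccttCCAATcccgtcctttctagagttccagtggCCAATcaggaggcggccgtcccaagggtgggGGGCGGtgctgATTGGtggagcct
Acot4: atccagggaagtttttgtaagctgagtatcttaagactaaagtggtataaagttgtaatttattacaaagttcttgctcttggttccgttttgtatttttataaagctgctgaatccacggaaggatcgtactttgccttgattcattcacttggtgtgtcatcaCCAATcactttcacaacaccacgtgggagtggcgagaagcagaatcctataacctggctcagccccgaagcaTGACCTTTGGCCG

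Compared between genotypes, peroxisome genes differed little, and more of them lay above than below the WT level. Of the 38 genes, 28 (73.7%) had a higher fitted level in Axl KO mice, against 49.7% of all genes tested. Their median log2 fold change was 0.070, or 5.00%. Over all genes tested the median was −0.00078, and over the 9601 genes at least as abundant as the lowest member it was 0.0090, with 53.4% higher. No member passed the test: 0 of 38 had an adjusted p under 0.05 in edgeR or in DESeq2, and the lowest adjusted p was 0.572. At an unadjusted p under 0.05 there were 3, Scp2, Pex13 and Pex14, all higher in Axl KO mice, in each of the tools. That is 7.89% of the members, against 8.38% of all genes in edgeR (4.52% higher, 3.86% lower) and 6.93% in DESeq2, so by this count the members did not stand out. In 0 of 38 genes did the CPM of the groups not overlap (1.36% of all genes, 0.728% with Axl KO mice higher). The log2 fold change lay within 0.1 of 0 in 24 of the 38.

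The summed level of the 38 genes was 8370 ± 271 CPM (7967 to 8649) in Axl KO and 8128 ± 239 CPM (7837 to 8465) in WT mice, with overlapping ranges. The median log2 fold change was between 0.035 and 0.099 when 1 mouse at a time was left out, with 23 to 32 genes higher. It was 0.035 without Axl KO replicate 5, 0.040 without WT replicate 1 and 0.042 without WT replicate 5. The count at an unadjusted p under 0.05 moved from 3 to 1 without Axl KO replicate 1, to 1 without WT replicate 5 and to 11 without Axl KO replicate 3.

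**Figure D2:**
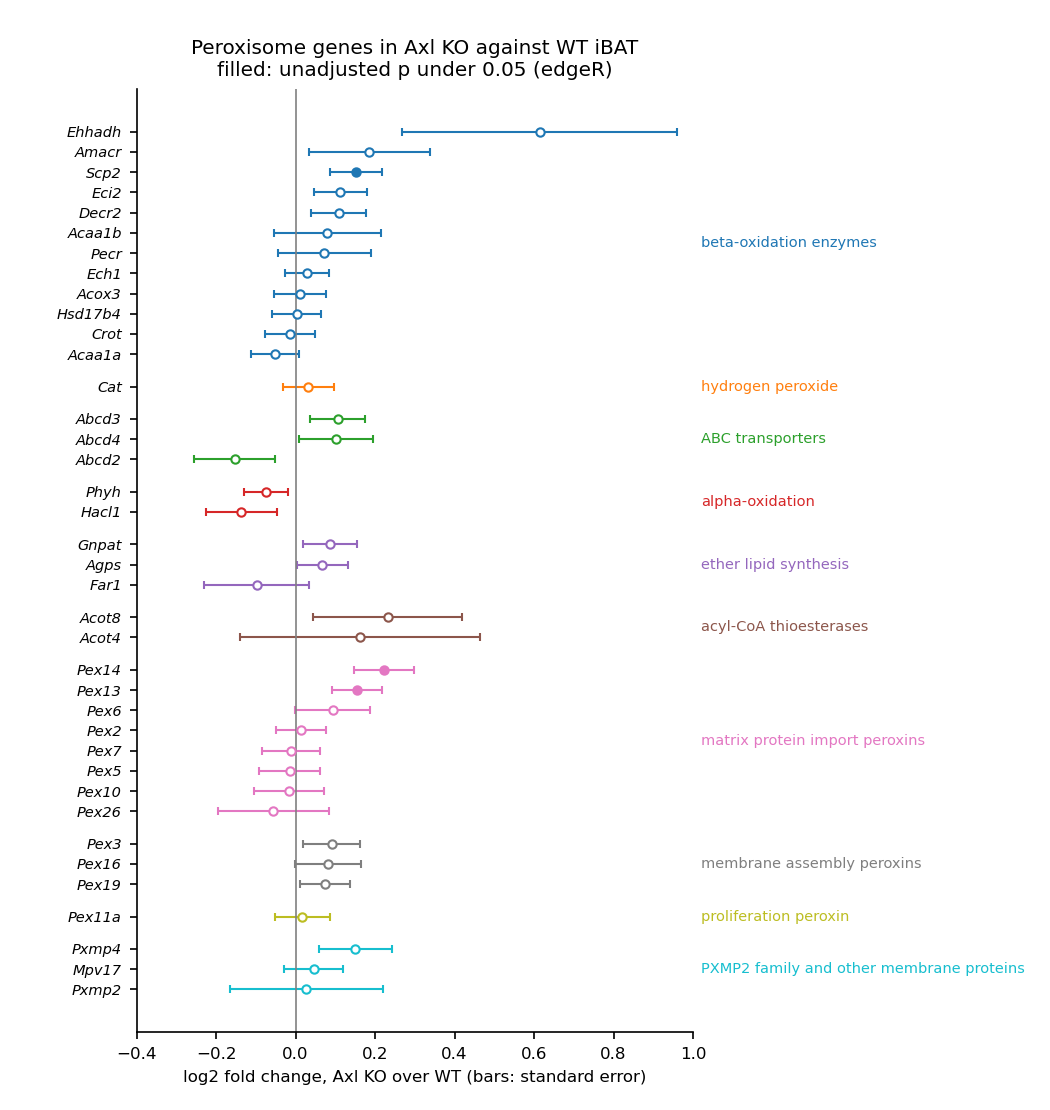
Log2 fold change of each peroxisome gene, Axl KO over WT, with its standard error as a bar, grouped and coloured by role; filled points have an unadjusted p under 0.05 in edgeR. Scp2, Pex13 and Pex14 are filled at 0.15, 0.15 and 0.22, and Ehhadh has the largest value, 0.61, with the widest bar.

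Of the 12 enzymes of peroxisomal beta-oxidation, 10 had a higher fitted level in Axl KO mice (median log2 fold change 0.077), and 1 had an unadjusted p under 0.05 in edgeR, a share of 8.33% against 8.38% of all genes. Scp2 was at 643, 558, 571, 597 and 674 CPM in Axl KO replicates 1 to 5 and at 529, 575, 519, 557 and 557 CPM in WT replicates 1 to 5. Axl KO replicates 1, 4 and 5 lay above every WT mouse, and the other Axl KO mice lay among them. Its log2 fold change was 0.15 (standard error 0.066, edgeR p = 0.0389, adjusted p = 0.580; two-sided exact permutation p = 0.0397). Without Axl KO replicate 1, 4 or 5 or WT replicate 1, 3, 4 or 5 its unadjusted edgeR p rose above 0.05, to at most 0.103 (without Axl KO replicate 5), and with the replicate number as a block it was 0.057.

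Ehhadh, the L-bifunctional enzyme that acts on long dicarboxylic and straight chains and a strongly PPARα-responsive gene in liver (ENSMUSG00000022853, chromosome 16 from 21761287 to 21787807), had the largest fold change of the 38 and the largest standard error. It was at 107, 127, 40.2, 119.6 and 141 CPM in Axl KO and 36.5, 49.5, 122, 86.3 and 54.5 CPM in WT replicates 1 to 5. The Axl KO mice were high apart from replicate 3, which was below all WT mice but replicate 1, and WT replicate 3 was as high as the Axl KO mice. With means of 107 ± 39.3 and 69.7 ± 34.4 CPM, the log2 fold change was 0.61 (standard error 0.35, edgeR p = 0.0995, adjusted p = 0.641; exact permutation p = 0.190). It ranged from 0.45 to 0.92 when single mice were left out. The coefficient of variation of its CPM was 36.7% in Axl KO and 49.3% in WT mice.

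Amacr, the racemase that readies branched chains for oxidation (ENSMUSG00000022244, chromosome 15 from 10981756 to 10996626), was at 41.1, 35.7, 30.8, 41.1 and 59.2 CPM in Axl KO and 31.1, 33.3, 41.2, 42.2 and 34.2 CPM in WT mice. Axl KO replicate 5 alone lay above the WT range. Its fold change was 0.19 on the log2 scale (standard error 0.15, edgeR adjusted p = 0.747), and 0.030 without Axl KO replicate 5.

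The thiolases of the last step are near-identical copies, Acaa1a (ENSMUSG00000036138, chromosome 9 from 119339676 to 119350299) and Acaa1b (ENSMUSG00000010651, chromosome 9 from 119148023 to 119157093), and how reads that match both were counted is not given in the sources used here, so their split is uncertain. Acaa1a was at 87.5, 90.8, 85.9, 96.3 and 77.9 CPM in Axl KO and 92.6, 88.8, 92.6, 91.3 and 89.3 CPM in WT mice. Acaa1b was at 41.9, 41.7, 28.9, 30.8 and 28.9 CPM in Axl KO and 26.9, 33.0, 40.0, 30.0 and 32.4 CPM in WT mice. Neither separated the genotypes, with log2 fold changes of −0.052 (standard error 0.059) and 0.080 (standard error 0.13), edgeR adjusted p = 0.823 and 0.886.

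For the abundant enzymes Ech1 and Hsd17b4 the difference between genotypes was smaller than its standard error, unlike for Scp2. Ech1 was at 1858, 1988, 1856, 1995 and 2023 CPM in Axl KO and 1859, 1972, 1821, 1880.1 and 1991 CPM in WT mice, and Hsd17b4 at 596, 539, 543, 577 and 583 CPM in Axl KO and 568, 591, 509.8, 564 and 600.5 CPM in WT mice. Their log2 fold changes were 0.030 (standard error 0.056) and 0.0027 (standard error 0.061), and the sign of the latter turned when single mice were left out (−0.033 to 0.025). Eci2 and Decr2, which prepare unsaturated chains for oxidation, had log2 fold changes of 0.11 and 0.11. Pecr, an enoyl-CoA reductase, had 0.073, the branched-chain oxidase Acox3 0.011, and Crot, which hands shortened chains on to carnitine, −0.014. Their unadjusted edgeR p were 0.117 for Eci2, 0.147 for Decr2 and above 0.5 for the others.

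Cat was at 1019.5, 1136, 1083, 1129.6 and 1088 CPM in Axl KO and 1037, 1117, 955, 1132 and 1093 CPM in WT mice, and all Axl KO mice but replicate 2 lay within the WT range. Its log2 fold change was 0.033 (standard error 0.063, edgeR adjusted p = 0.906). The ABC transporters, which carry acyl-CoAs or, for Abcd4, act at the lysosome in cobalamin export, went in different directions. Abcd3 was at 701, 727, 600.2, 688 and 736 CPM in Axl KO and 644, 704, 622, 629 and 607 CPM in WT mice, higher than all WT mice in replicates 2 and 5 and lower than all in replicate 3. Its log2 fold change was 0.11 (standard error 0.069, edgeR adjusted p = 0.680). That of Abcd4 was 0.10 and that of Abcd2, a transporter of very long-chain acyl-CoAs, −0.15 (standard error 0.10, adjusted p = 0.684). Both genes of alpha-oxidation had negative values. Phyh was at 655, 717, 707, 698 and 665 CPM in Axl KO and 681, 739.9, 722, 730.5 and 754 CPM in WT mice. Axl KO replicates 1 and 5 lay below every WT mouse and the rest within the WT range. The log2 fold change was −0.075 (standard error 0.055, edgeR adjusted p = 0.713; exact permutation p = 0.0794). Hacl1, the lyase of the same pathway, was at −0.14 on the log2 scale (standard error 0.090), but 33.3% of its exon bases are shared with other annotated genes.

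In ether lipid synthesis, Gnpat and Agps, which catalyse the first steps inside the peroxisome, had log2 fold changes of 0.086 and 0.068. Far1, the reductase that supplies the fatty alcohol, had −0.098, and the lowest edgeR adjusted p of the 3 was 0.741. Of the thioesterases, which release fatty acids from coenzyme A, Acot8 (ENSMUSG00000017307, chromosome 2 from 164792765 to 164804882) was at 15.6, 11.9, 6.78, 10.5 and 15.3 CPM in Axl KO and 10.1, 9.87, 9.96, 10.5 and 10.1 CPM in WT mice. Its Axl KO values scattered on both sides of a narrow WT range, and the log2 fold change was 0.23 (standard error 0.19, edgeR adjusted p = 0.745). It was 0.11 without Axl KO replicate 1, 0.13 without Axl KO replicate 5 and 0.39 without Axl KO replicate 3, the last with an unadjusted edgeR p of 0.0096 and an adjusted p of 0.202. Acot4 had 0.16 with a standard error of 0.30.

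The 12 peroxins had a median log2 fold change of 0.046 with 8 higher, and 2 of them, Pex13 and Pex14, had an unadjusted p under 0.05 in edgeR (16.7%, against 8.38% of all genes). Both proteins belong to the complex at which cargo receptors dock, a grouping seen after their values were known and not tested. Pex13 (ENSMUSG00000020283, chromosome 11 from 23646479 to 23665959) was at 195, 199.7, 169, 179 and 183 CPM in Axl KO and 178, 171, 154, 169.9 and 158 CPM in WT mice. Every Axl KO mouse but replicate 3 lay above the WT range, by little. Its log2 fold change was 0.15 (standard error 0.064, edgeR p = 0.0309, adjusted p = 0.572; exact permutation p = 0.0476). Its unadjusted edgeR p rose above 0.05 without Axl KO replicate 1 or 2 or WT replicate 3 or 5, to at most 0.0822 (without Axl KO replicate 2). Pex14 (ENSMUSG00000028975, chromosome 4 from 148960535 to 149099876) was at 60.9, 72.0, 57.8, 69.9 and 71.3 CPM in Axl KO and 59.4, 54.9, 52.8, 62.2 and 55.2 CPM in WT mice. Axl KO replicates 2, 4 and 5 lay above all WT mice, and the other 2 within the WT range. Its log2 fold change was 0.22 (standard error 0.076, edgeR p = 0.0123, adjusted p = 0.572; exact permutation p = 0.0397), and 0.19 to 0.27 when single mice were left out. Of its exon bases, 28.3% lie opposite the antisense gene Gm17029, and reads of the pair cannot be told apart without the strand.

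The other 6 peroxins of matrix import had log2 fold changes smaller than their standard errors. The cargo receptors Pex5 and Pex7 had log2 fold changes of −0.015 and −0.011, the RING ubiquitin ligases Pex2 and Pex10 0.014 and −0.016, and the receptor-recycling ATPase Pex6 and its membrane anchor Pex26 0.093 and −0.055. The 3 peroxins that place membrane proteins, Pex3, Pex16 and Pex19, were all slightly higher, at 0.091, 0.082 and 0.075, and the division factor Pex11a was at 0.018. Of the remaining membrane proteins, Pxmp4 had 0.15, Mpv17 0.046 and the channel protein Pxmp2 0.028. None of these 13 had an unadjusted p under 0.05 in edgeR. Of the 38 members, 18 share exon bases with another annotated gene.

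Axl KO replicate 3 stood apart from the other Axl KO mice. It had the lowest CPM of its group in 20 of the 38 genes, against 23.1% of all genes, and the 38 genes lay at a median of −0.15 on the log2(CPM + 1) scale from the mean of the other Axl KO mice (0.0090 over all genes). Replicate 5 was highest in 15. Among WT mice, replicate 3 was lowest in 14 and replicate 1 in 12. Axl KO replicate 3 also had the highest macrophage and white fat marker sums of the 10 mice (276 and 663 CPM). Most of that white fat sum was leptin (Lep) alone, and without Lep this mouse did not have the highest sum. Its brown adipocyte sum was the lowest of its group (10137 CPM). The part of these cell types in its low values was not tested. Without this mouse, 11 members had an unadjusted p under 0.05 in edgeR, 28.9% of them against 14.8% of all genes in the same fit, and 0 an adjusted p under 0.05. Those higher were Ehhadh, Scp2, Eci2, Abcd3, Acot8, Pex13, Pex14, Pex16 and Pxmp4 (9 of 38, 23.7%, against 7.73% of all genes), with log2 fold changes from 0.15 for Pex16 to 0.83 for Ehhadh. Those lower were Abcd2 (−0.24) and Far1 (−0.24). The median over the 38 genes was then 0.099, with 29 higher. This mouse was singled out after the values were seen, among 10 fits that each left out 1 mouse. The CPM of a typical member varied by 9.0% between Axl KO and 6.37% between WT mice (median coefficient of variation), and more between Axl KO mice in 30 of 38 genes. Over all genes the medians were 13.3 and 11.3%, and over the 9601 genes at least as abundant as the lowest member 10.3 and 8.55%.

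**Figure D3:**
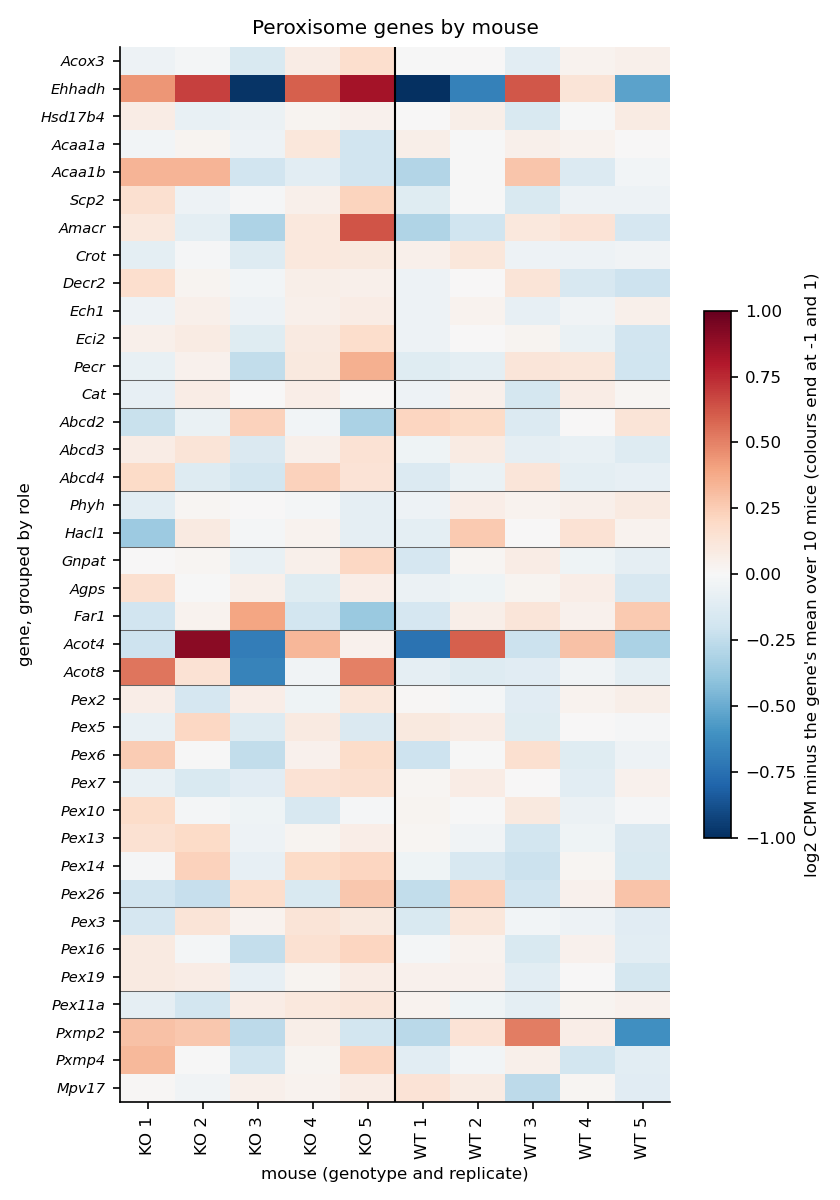
Log2 CPM of each peroxisome gene minus its mean over the 10 mice (red above, blue below, colours end at −1 and 1), with mice in columns and genes grouped by role. Most cells are pale, Axl KO replicate 3 is bluer than its group, being lowest of the 5 in 20 genes, and Ehhadh and Acot4 vary most.

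Ehhadh and Abcd2 varied between mice in opposite directions within both genotypes, a pattern chosen after the values were seen. Abcd2 was at 316, 352, 431, 361 and 296 CPM in Axl KO and 428, 421, 334, 369 and 402 CPM in WT replicates 1 to 5. Its 4 highest mice, Axl KO replicate 3 and WT replicates 1, 2 and 5, were the 4 lowest for Ehhadh. The same 4 mice were the lowest for the peroxisomal fatty acyl-CoA synthetase Slc27a2 (113 to 162 CPM, against 166 to 226 CPM in the other 6). They were also the highest for leptin (Lep), the gene that makes up most of the white fat list, which was at 249, 254, 596, 246 and 176 CPM in Axl KO and 539, 469.7, 213, 238 and 507 CPM in WT mice. The white fat marker sum without Lep was highest in other mice, Axl KO replicates 1 and 2 and WT replicate 3. The part of white fat cells in these values was not tested.

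**Figure D4:**
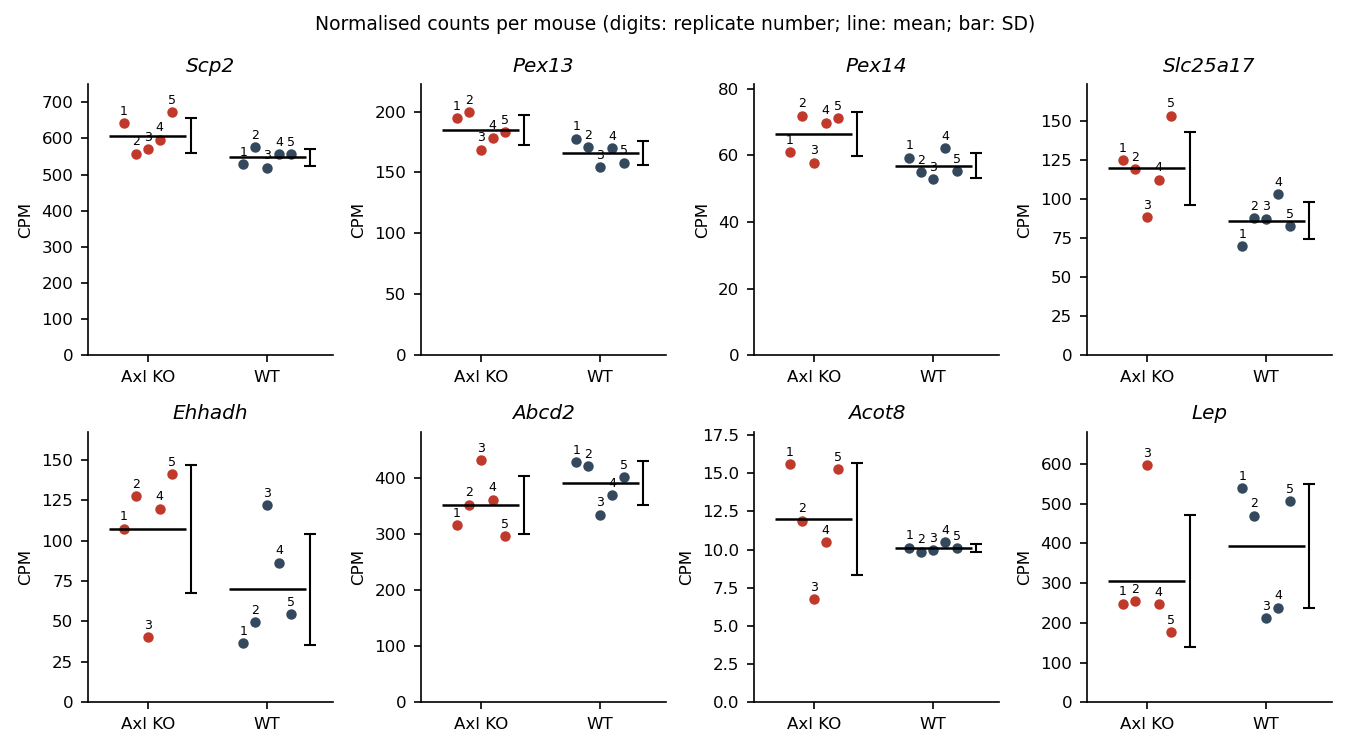
CPM per mouse (digits are replicate numbers) with the group mean as a line and the SD as a bar, from 0, for 5 Axl KO (red) and 5 WT (dark) mice. In each panel the groups overlap, and Axl KO replicate 3 and WT replicates 1, 2 and 5 are low for Ehhadh and high for Abcd2 and Lep.

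Peroxisomal genes outside the 38 included Acad11, an acyl-CoA dehydrogenase found in peroxisomes. It was at 834, 831, 732, 829 and 898 CPM in Axl KO and 705, 731, 684, 703 and 688 CPM in WT mice, and the lowest Axl KO mouse, replicate 3, stood just above the highest WT mouse, replicate 2. Its log2 fold change was 0.23 (standard error 0.062, edgeR p = 0.00252, adjusted p = 0.572, exact permutation p = 0.00794, the smallest that 5 against 5 mice allow), with an adjusted p of 0.0884 in DESeq2. Groups that do not overlap, which give this permutation p, occurred in 1.36% of all genes tested (0.728% with Axl KO mice higher). Slc25a17, the peroxisomal carrier of coenzyme A and other cofactors, was at 125, 119, 88.2, 112 and 153 CPM in Axl KO and 69.5, 87.6, 87.4, 103 and 82.6 CPM in WT mice. All Axl KO mice but replicate 3 lay above the WT range, and the log2 fold change was 0.47 (standard error 0.13, edgeR p = 0.00358, adjusted p = 0.572, exact permutation p = 0.0159). Nudt19, a coenzyme A diphosphatase, had 0.15, and its unadjusted edgeR p rose above 0.05 without Axl KO replicate 4 or 5 or WT replicate 2, 3 or 5.

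Of 38 such peroxisomal genes outside the members, 28 were tested and 20 were higher in Axl KO mice (median log2 fold change 0.087). Acad11, Slc25a17 and Nudt19, all higher, had an unadjusted p under 0.05 in edgeR, which is 10.7% against 8.38% of all genes. In DESeq2, 6 of the 28 had one, against 6.93% of all genes. After adjustment 0 were under 0.05 in either tool. Groups did not overlap in 1 of the 28, Acad11. The most abundant per length, beside Acad11, were Ephx2, an epoxide hydrolase, with a log2 fold change of 0.16, and the peroxiredoxin Prdx5 with 0.00098. The 10 below the filter were Far2, Acot3, Acot5, Pipox, Hao1, Hao2, Dao, Agxt, Baat and Uox.

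The 10 genes whose products also work in mitochondria or the cytosol had a median log2 fold change of 0.063 with 8 higher, and 1, the malonyl-CoA decarboxylase Mlycd (0.28), had an unadjusted p under 0.05 in edgeR. Acsl1, Crat and Idh1, the most abundant per length, had 0.093, 0.15 and 0.052. Of 18 genes of mitochondrial beta-oxidation, 14 were higher with a median of 0.071, the same size as the median of 0.070 over the peroxisome genes. The carnitine-acylcarnitine carrier Slc25a20 (0.15) alone had an unadjusted p under 0.05 in edgeR (5.56%, against 8.38% of all genes). When single mice were left out, only the fits without Axl KO replicate 1 or 3 or WT replicate 2 kept it. Acaa2, Acadvl and Acadl, the most abundant per length, had −0.077, 0.054 and 0.040. Of 9 nuclear receptors and coactivators that act on these genes, 8 were higher with a median of 0.044 and 0 had an unadjusted p under 0.05 in edgeR or DESeq2. Pparg had 0.095, Esrra 0.14 and Ppara −0.20, the last with values from 189 to 367 CPM in Axl KO and from 184 to 407 CPM in WT mice. None of the genes in these 3 lists had an adjusted p under 0.05 in either tool.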

How the data were processed

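Per the labels, iBAT was snap-frozen, RNA was extracted with Trizol and DNase-treated, and TruSeq libraries were made. The labels name polyadenylated RNA, the study's methods rRNA depletion. The authors deposited 1 table per mouse with raw counts of reads per Ensembl gene, not normalized and not pooled. The submitters' processing notes list Trimmomatic 0.36, STAR 2.6.1c, DESeq2 and GRCm38.p5, whereas the methods name Trim Galore, hisat2 and GRCm38. The counting tool, its strand setting and its handling of reads that match several genes are not given in the sources used here, so overlapping, antisense and near-identical genes are uncertain.

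Symbols came from GENCODE M21 (41163 of 41249 identifiers). Counts of all genes with a mean above 1 CPM over the 10 mice were fitted in R 4.3.3 with edgeR 4.0.16 (limma 3.58.1; TMM, quasi-likelihood test, no covariate) with Benjamini-Hochberg adjustment over 13739 genes; the standard error is the log2 fold change divided by the square root of F. DESeq2 1.42.0 was an alternative, with RLE size factors, filterByExpr, no filter, the replicate number as a block and each mouse left out in turn. CPM are on TMM-normalized library sizes, and RPKM divide them by the exon length. Single genes were compared on log2(CPM + 1) over all 252 assignments of mice (two-sided exact permutation test, smallest p 0.00794). Scripts were tested on simulated data. The common biological coefficient of variation over all genes tested was 14.8%. No pair of libraries agreed within sampling noise (lowest chi-square per gene 5.46), and each mouse counted as 1 replicate.

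The 38 members and all gene lists were chosen with earlier results of these data known. Values per mouse are given for members with an unadjusted p under 0.05 or no overlap, the 6 highest in RPKM, the 4 largest fold changes and the thiolase copies, and from the other lists genes are named by the same p or overlap and the 3 highest in RPKM. Some genes of these other lists are not reported here and were left out of their counts. Promoter windows came from a RefSeq table of GRCm38.p6.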

Additional observations from a re-analysis of the deposited data

Results flagged for a closer look

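Over 110 groups of 5 mice examined, 3 had an extreme mouse separated from its neighbour by more than 0.71 of the group's range (Dixon's criterion). Chance gives this in about 1 in 20 groups, or 5.5 here. Among WT mice, replicate 3 had the highest level of Abcd4, 26.9 CPM, with the nearest at 23.5 CPM (gap 0.749 of the range). Without it the log2 fold change of Abcd4 was 0.15 in place of 0.10. Of the Axl KO mice, replicate 3 was lowest for the nuclear receptor gene Esrra, 114 CPM, with the nearest at 150.4 CPM (gap 0.815), and without it the log2 fold change was 0.22 in place of 0.14. Axl KO replicate 4 had 0.438 CPM of Axl, from 3 counts, with the nearest at 1.70 CPM (gap 0.801), and without it the log2 fold change was −4.53 in place of −4.77.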

How the results depend on the processing

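Under DESeq2, RLE size factors, filterByExpr, no filter on low counts, the replicate block and each of 10 fits without 1 mouse, 0 of the 38 members had an adjusted p under 0.05. The number of genes with an adjusted p under 0.05 was 1 in each fit except DESeq2, with 9. Members at an unadjusted p under 0.05 numbered 3 under DESeq2, RLE and filterByExpr, 4 without a filter, and 1 to 11 when mice were left out (1 without Axl KO replicate 1 or WT replicate 5, 11 without Axl KO replicate 3). The median log2 fold change was 0.070 to 0.071 under the other tool, scaling and filters and 0.035 to 0.099 without single mice. Mice of the 2 genotypes share replicate numbers, and the labels do not say whether these mark pairs. Deviations of same-numbered mice correlated from −0.36 to 0.37, which cannot show whether pairs exist. With the number as a block, 3 members had an unadjusted p under 0.05, 2 of them higher, Scp2 was no longer among them, the median was 0.067, and 1 gene was called. Of 450 alternative values for 30 named genes, 438 kept their direction and side of an adjusted p of 0.05. The 12 that turned sign were small. Hsd17b4 lay between −0.033 and 0.025 without single mice (negative without Axl KO replicates 1, 4 or 5 or WT replicate 3), Prdx5 between −0.021 and 0.032 (−0.00096 under the block), Cat between −0.0049 and 0.057 and Idh1 between −0.0022 and 0.088, the latter 2 negative without WT replicate 3. The cause was not tested. Permutation p kept their side of 0.05 with a pseudocount of 0.1. The median difference over the members, 5.00%, was smaller than the spread of a typical member between mice. That spread was 9.0% in Axl KO and 6.37% in WT mice (median coefficient of variation, 5 mice per genotype). It is the spread of single genes between single mice, so it does not measure the error of the median difference.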
